A study of Mus musculus with 6 samples.

Results

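The 10 genes described here encode 7 ligands of the epidermal growth factor (EGF) family (Egf, Tgfa, Areg, Ereg, Hbegf, Btc and Nrg1) and 3 of their ErbB receptors (Egfr, Erbb2 and Erbb3), picked by symbol from the 48440 genes listed in each library. RNA-seq was done on adenoma polyps of the small intestine from mice with the ApcMin mutation, 3 libraries from ApcMin mice (named QC4, QC5 and QC6 in the labels) and 3 from ApcMin PCdel mice (QC3, QC8 and QC10). The mice of both groups carried ApcMin on a C57BL/6 background and were adults older than 42 days. PCdel mice also carried Cre inserted at the Defa4 locus, which is active in the Paneth cell lineage, together with a Cre-dependent diphtheria toxin A (iDTA) allele at Rosa26, so that cells of that lineage are killed. The study's methods describe the ApcMin controls as littermates with the iDTA allele and no Cre. They also state that the Cre was inserted in embryonic stem cells of another mouse strain, with 7 or more generations of backcrossing to C57BL/6. The Cre acts wherever Defa4 is or was expressed, and each adenoma library also holds the other cells of the polyp. The labels do not say that each library came from a separate mouse. If some did not, the p-values rest on fewer mice than libraries and partly measure spread within a mouse.

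EGF family ligands are made as membrane-bound precursors, shed from the cell surface by proteases and bound by ErbB receptor tyrosine kinases, which pair and signal through the RAS-ERK and PI3K-AKT cascades. EGFR binds EGF, TGF-alpha, amphiregulin, epiregulin, HB-EGF and betacellulin. ErbB3 binds neuregulin, has little kinase activity of its own and signals mainly with ErbB2, which has no known ligand. In the small intestine, Paneth cells are a known source of EGF and TGF-alpha for the crypt base, where EGFR signals keep stem cells dividing.

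Paneth cell genes were detected in all libraries, and 4 of 10 markers had every PCdel value below every ApcMin value (1.54% of all 14240 genes tested did), among them the 3 given here. Lyz1, the Paneth cell lysozyme, was at 1672, 2229 and 2281 FPKM (sequenced fragments relative to transcript length and library size) in ApcMin QC4, QC5 and QC6, and at 950.3, 1148 and 1082 FPKM in PCdel QC3, QC8 and QC10. Defa21, a defensin, was at 129, 352 and 241 FPKM in ApcMin and 35.4, 20.2 and 28.0 FPKM in PCdel libraries, and Defa22 at 129.5, 335 and 232 against 36.6, 24.5 and 32.5 FPKM. All 3 PCdel libraries, QC3 included, lay below all ApcMin libraries in these 3 genes. All 10 of the Paneth cell markers examined had a negative fold change, 7 of them with an unadjusted p below 0.05 (0.681% of all genes were lower at this level) and 0 with an adjusted p below 0.05 by limma. The groups overlapped in the other 6 and in the sum of all 10 (6024 to 13240 FPKM in ApcMin, 3937 to 6977 FPKM in PCdel libraries), and Ang4, an antimicrobial angiogenin, was highest of all in PCdel QC8 at 1173 FPKM. In bulk tissue, fewer cells of a type cannot be told apart from less RNA per cell. Defa21 and Defa22 are of the same gene family as Defa4 and lie on chromosome 8, whereas Lyz1 lies on chromosome 10. For these defensins, strain sequence linked to the Cre cannot be told apart from the genotype either, and its part was not tested. Epithelial markers such as Epcam did not separate the genotypes (4 of 6 markers higher, 2 lower, 0 called). Without QC6, 1 of the 6 was higher, and their median log2 fold change was -0.16 in place of 0.02. The 6 adenoma crypt markers, Lgr5 and Axin2 among them, summed to 232, 191 and 115 FPKM in ApcMin and 176, 222 and 203 FPKM in PCdel libraries. Of these, 5 were higher with all libraries and 1 without QC6, with a median of 0.19 and -0.10. Libraries came from 5.407 to 5.876 gigabases of aligned sequence. QC6 stood apart, with the lowest limma quality weight (0.237, against 0.634 to 3.09 in the others). It also had the lowest sum of adenoma crypt markers and the highest of 6 enterocyte markers (24480 FPKM, against 8917 to 14620 FPKM in the others). Xist, transcribed from the inactive X chromosome of females, was between 16.7 and 37.4 FPKM in QC4, QC5, QC8 and QC10 and at most 0.0035 FPKM in QC6 and QC3, so each genotype had 2 libraries with Xist RNA and 1 without. Eif2s3y, a Y-linked gene, was at 21.15 FPKM in QC6 and 24.3 FPKM in QC3. It was at most 1.14 FPKM, in QC5, among the others. QC6 and QC3 thus held male RNA, although the labels give no sex.

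Of the 10 genes, 9 reached the mean of 1 FPKM required for testing, and Egf did not. No gene of the family passed an adjusted p of 0.05 in limma's comparison of log2(FPKM + 1) values (0 of 9, all with an adjusted p of 1.0), whereas 2 of all 14240 genes tested did (0.0140%). At an unadjusted p below 0.05, Ereg and Nrg1 were higher in PCdel adenomas (2 of 9; 2.70% of all genes were higher at this level) and 0 of 9 were lower (0.681% of all genes). The same 2 genes were the ones whose 3 PCdel values all lay above the 3 ApcMin values, a separation met by 6.00% of all genes, and 0 of 9 had all PCdel values below (1.54% of all genes). The fold change was positive for 8 of the 9 genes and negative for Tgfa. That split was 6 to 3 when each library was centred on its median and 4 to 5 with quality weights, and 63.1% of all genes had a positive fold change. With 3 libraries against 3, an exact permutation test cannot go below p = 0.1.

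**Figure D1:**
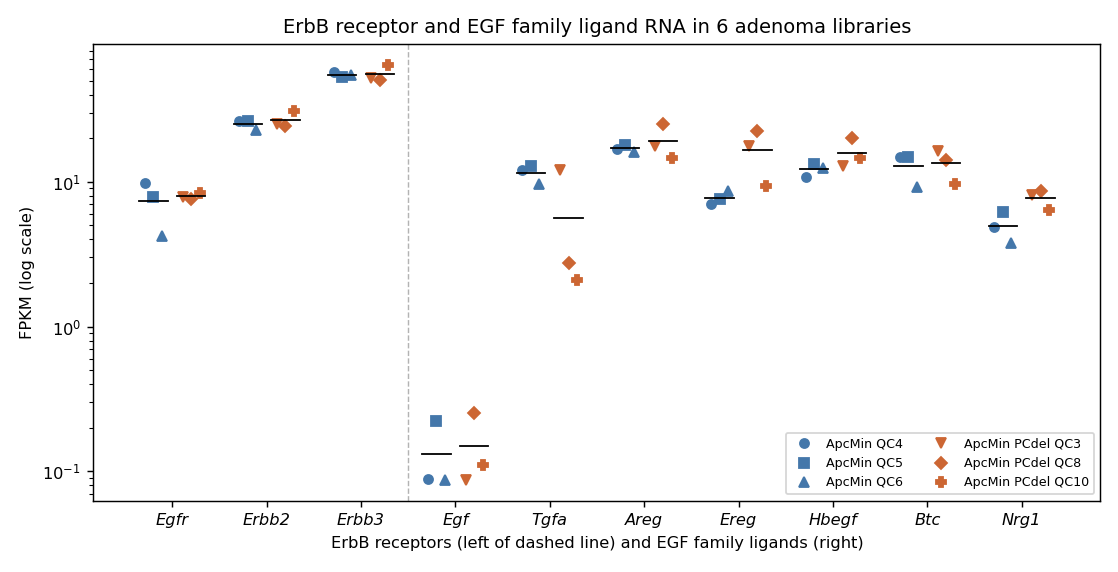
FPKM on a log scale of each receptor and ligand gene in the 3 ApcMin (blue) and 3 ApcMin PCdel (orange) libraries, 1 symbol per library, with black lines at the group means. The PCdel points of Ereg and Nrg1 all lie above the ApcMin points, Tgfa is split among PCdel libraries with QC3 at 12.1 FPKM and QC8 and QC10 at 2.73 and 2.09 FPKM, and Egf is at most 0.252 FPKM.

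The receptors did not separate the genotypes, and their order was the same in every library. Erbb3 was at 57.7, 52.5 and 54.5 FPKM in ApcMin QC4, QC5 and QC6 and at 52.2, 50.3 and 64.3 FPKM in PCdel QC3, QC8 and QC10. Erbb2 was at 26.3, 26.5 and 22.9 FPKM in ApcMin and 25.2, 24.2 and 30.6 FPKM in PCdel libraries. PCdel QC10 had the highest level of both genes, and the other PCdel values lay just below the range of the controls for Erbb3 and within it for Erbb2. The log2 fold change was 0.01 (SE 0.12, 95% interval -0.29 to 0.30) for Erbb3 and 0.07 (SE 0.12, -0.22 to 0.37) for Erbb2, and both turned slightly negative with quality weights (-0.01 and -0.02).

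Egfr, the receptor of most of these ligands, was at 9.87, 7.84 and 4.23 FPKM in ApcMin and at 7.84, 7.61 and 8.30 FPKM in PCdel libraries. The 3 PCdel values were close together (7.92 ± 0.351, SD, n = 3), whereas the ApcMin values ranged more widely (7.31 ± 2.86, SD, n = 3), with QC6 the lowest. The log2 fold change of 0.16 (SE 0.26, 95% interval -0.45 to 0.78) became -0.14 without QC6 and -0.04 with quality weights, and it was -0.13 between the libraries with Xist RNA. In FPKM, which is scaled for transcript length, Erbb3 was 1.98 to 2.38 times Erbb2 within single libraries. It was 5.84 to 7.74 times Egfr in 5 libraries and 12.9 times in QC6. In read coverage Erbb3 was 2.21 to 2.69 times Erbb2 and 8.63 to 17.9 times Egfr, so the order was the same and the size depended on the unit. Erbb4, the remaining receptor of the family, which binds neuregulins and some EGFR ligands, was listed at 0 in 5 libraries and at 0.0025 FPKM in PCdel QC8. Egfr and Erbb2 lie on chromosome 11 (GRCm38 positions 16752203 to 16918158 and 98412470 to 98437716) and Erbb3 on chromosome 10 (128567523 to 128589652).

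Ereg, which encodes epiregulin, had the largest positive fold change of the family. The gene lies at 91074622 to 91093646 of chromosome 5. It was at 6.97, 7.60 and 8.66 FPKM in ApcMin QC4, QC5 and QC6 and at 17.6, 22.5 and 9.33 FPKM in PCdel QC3, QC8 and QC10. QC3 and QC8 lay far above the controls, while QC10 was only just above QC6, so the groups did not overlap but came close. The PCdel mean of 16.5 ± 6.67 FPKM was 2.13 times the ApcMin mean of 7.74 ± 0.856 FPKM (SD, n = 3 each). The log2 fold change was 0.92 (SE 0.29, 95% interval 0.22 to 1.62, limma's unadjusted p = 0.0171, adjusted p = 1.0) and the exact permutation p was 0.1. It was 0.67 without QC8 and 1.26 without QC10, and limma's unadjusted p was 0.0509 without QC4 and 0.0517 without QC3. It was 0.91 between the libraries with Xist RNA and 0.94 between the single libraries without it. Beside it, the summed level of 6 macrophage markers was 80.0, 79.5 and 92.7 FPKM in ApcMin and 98.6, 113.3 and 99.1 FPKM in PCdel libraries. All 6 of those markers had a positive fold change, 2 of them without overlap between the groups (63.1% and 6.00% of all genes), 0 passed the adjusted threshold and none was listed at 0. This was the only marker list whose sum separated the groups, and which list to set beside Ereg was not fixed before the values were seen. All tested fibroblast, smooth muscle, T cell, tuft cell and neutrophil markers had a positive fold change too. Macrophage sums were alike in QC3 and QC10, whereas Ereg was at 17.6 and 9.33 FPKM in them. The part of the macrophage markers in the Ereg result was not tested.

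Areg and Btc are neighbours of Ereg on chromosome 5, where Epgn, Ereg, Areg and Btc span 376 kb (91027464 to 91402994), and neither separated the genotypes. Areg, encoding amphiregulin, begins 46 kb beyond the end of Ereg and was at 16.9, 18.0 and 16.2 FPKM in ApcMin and 17.7, 24.9 and 14.6 FPKM in PCdel libraries. QC8 had the highest and QC10 the lowest value of all 6, and the log2 fold change was 0.12 (SE 0.19, 95% interval -0.33 to 0.57), or -0.08 without QC8. Btc, encoding betacellulin, was at 14.9, 14.8 and 9.13 FPKM in ApcMin and 16.3, 14.2 and 9.71 FPKM in PCdel libraries. Within each genotype 1 library, QC6 or QC10, was lower than the others, and the log2 fold change of 0.05 (SE 0.24, 95% interval -0.54 to 0.63) was close to 0 and turned negative in several alternatives, -0.04 with quality weights among them. It was -0.31 between the libraries with Xist RNA and 0.77 between those without. Epgn, encoding epigen at the other end of the cluster, stayed between 0.051 and 0.239 FPKM and was not tested.

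Nrg1, which encodes neuregulin 1, the ligand of ErbB3, was at 4.87, 6.15 and 3.75 FPKM in ApcMin and at 8.14, 8.65 and 6.39 FPKM in PCdel libraries. The groups did not overlap, although PCdel QC10 was close to ApcMin QC5. The means were 4.93 ± 1.20 and 7.72 ± 1.19 FPKM (SD, n = 3 each), a ratio of 1.57. The log2 fold change was 0.57 (SE 0.18, 95% interval 0.13 to 1.0, limma's unadjusted p = 0.0177, adjusted p = 1.0), and the exact permutation p was 0.1. It was between 0.42 and 0.71 with 1 library left out, and limma's unadjusted p was 0.0534 without QC3 and 0.0599 without QC8. It was 0.38 between the libraries with Xist RNA and 0.94 between the single libraries without it. The gene covers 31814551 to 32884029 of chromosome 8, and 18 transcripts are annotated for it. Defa21 and Defa22, of the same gene family as Defa4, begin at 21025545 and 21162277 of that chromosome. For Nrg1, strain sequence linked to the Cre cannot be told apart from the genotype, and its part was not tested.

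A pair of fibroblast markers were apart between the groups in the same direction as Nrg1. Pdgfra, a receptor typical of intestinal fibroblasts, was at 9.14, 8.92 and 7.40 FPKM in ApcMin and 14.7, 15.3 and 10.9 FPKM in PCdel libraries (log2 fold change 0.62, SE 0.15). Dcn, a matrix proteoglycan, was at 103, 110.5 and 81.9 FPKM in ApcMin and 172.5, 163 and 116 FPKM in PCdel libraries (0.60, SE 0.19). In both genes QC10 was the lowest PCdel library and QC6 the lowest control, as in Nrg1. Of the 6 fibroblast markers all had a positive fold change, these 2 without overlap (63.1% and 6.00% of all genes), 0 passed the adjusted threshold and none was listed at 0. Without QC6, 4 of the 6 were positive and their median was 0.13 in place of 0.29. The summed level ran from 185 to 277 FPKM in ApcMin and from 235 to 377.5 FPKM in PCdel libraries. The ratio of Nrg1 to Pdgfra was 0.533, 0.690 and 0.506 in ApcMin and 0.553, 0.565 and 0.586 in PCdel libraries. The PCdel ratios thus lay within the range of the controls. Pdgfra had the largest fold change of these 6 markers, so its ratio to Nrg1 says little of the other markers. Col1a1, Col1a2, Col3a1 and Lum had smaller log2 fold changes than Nrg1 (0.22, 0.23, 0.28 and 0.31), and their groups overlapped. The part of these markers in the Nrg1 result was not tested.

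**Figure D2:**
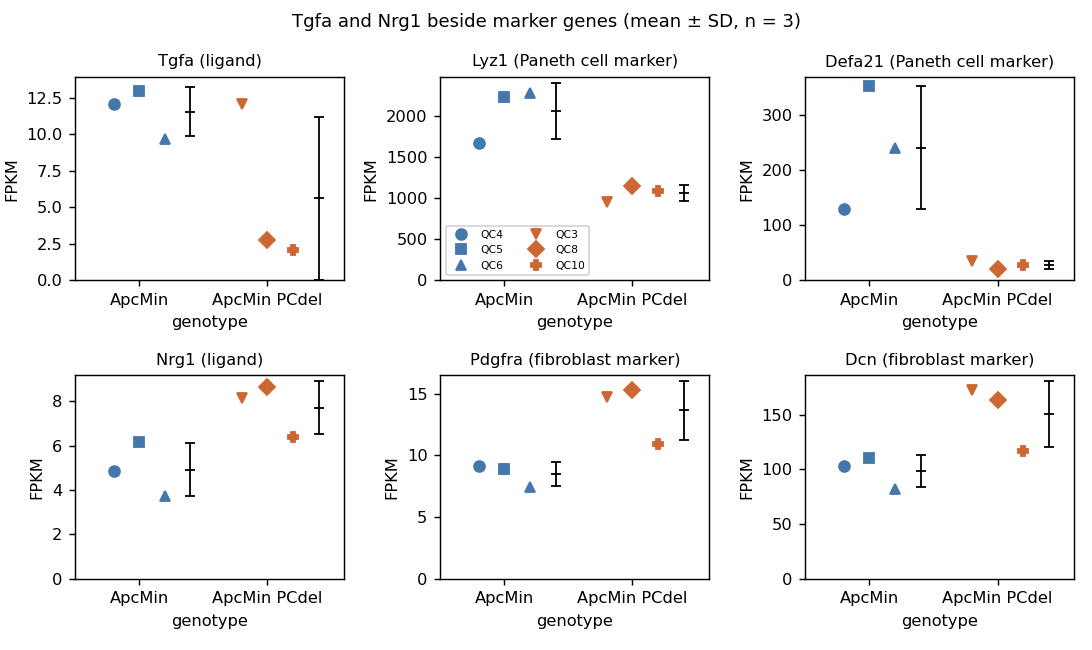
FPKM in each library of Tgfa and Nrg1 beside Paneth cell markers (Lyz1, Defa21) and fibroblast markers (Pdgfra, Dcn), with ApcMin in blue, ApcMin PCdel in orange and the mean ± SD of 3 libraries in black. PCdel QC3 has Lyz1 and Defa21 below every ApcMin library but Tgfa at 12.1 FPKM, and Nrg1, Pdgfra and Dcn are all higher in the 3 PCdel libraries than in the 3 ApcMin libraries.

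Tgfa, which encodes TGF-alpha, had the largest SD relative to its mean of the 10 genes among PCdel adenomas (99.1%, against 59.4% for Egf and 40.5% for Ereg). The gene lies at 86195223 to 86275719 of chromosome 6 and has 4 annotated transcripts. It was at 12.1, 12.9 and 9.66 FPKM in ApcMin QC4, QC5 and QC6 and at 12.1, 2.73 and 2.09 FPKM in PCdel QC3, QC8 and QC10. QC8 and QC10 lay far below every control, but QC3 was at the level of the controls, so the groups overlapped. The means were 11.6 ± 1.70 and 5.63 ± 5.58 FPKM (SD, n = 3 each). The log2 fold change was -1.23 (SE 0.52, 95% interval -2.47 to 0.01, limma's unadjusted p = 0.0518, adjusted p = 1.0), and the exact permutation p was 0.2. It was -1.88 without QC3, where the adjusted p was 0.12, and -0.84 without QC10.

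The same division of the PCdel libraries was present in the read coverage of Tgfa, which is not scaled to library size. Mean coverage was 12.9, 13.7 and 10.3 in ApcMin and 12.2, 1.67 and 1.42 in PCdel libraries. Among 35 other tested genes within 1 Mb of Tgfa on chromosome 6, fold changes lay between -0.39 and 0.28 on the log2 scale. Of these, 0 had an unadjusted p below 0.05 by limma (2.70% of all genes were higher and 0.681% lower at this level). These fold changes are over all PCdel libraries, so QC3 would dilute a change in QC8 and QC10 alone. QC3 had Lyz1, Defa21 and Defa22 below every control, as QC8 and QC10 did. QC8 and QC10 held Xist RNA and QC3 did not, and the log2 fold change of Tgfa was -1.99 between the libraries with Xist RNA and 0.29 between the single libraries without it. The summed level of 5 mast cell markers was 448, 962 and 812 FPKM in ApcMin and 965, 310 and 253 FPKM in PCdel libraries, lowest in QC8 and QC10 as Tgfa was. Of those 5 markers 4 had a negative fold change, where 63.1% of all genes had a positive one. Kit went the other way (log2 fold change 0.09), at 5.90 FPKM in QC8 and 4.71 FPKM in QC10 against 5.36 to 6.84 FPKM in ApcMin. Mcpt1 and Mcpt2 had the highest levels of the 5. None passed the adjusted threshold or was listed at 0. Which marker list to set beside Tgfa was not fixed before the values were seen. The part of these markers in the Tgfa result was not tested.

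The sequences just upstream of Tgfa and Areg are shown because Tgfa had the largest SD relative to its mean among PCdel adenomas and Areg had the highest mean FPKM of the ligands in both genotypes. They are the 250 bases before the annotated start on GRCm38.p6, on the plus strand, at chr6:86194972-86195221 for Tgfa and chr5:91139349-91139598 for Areg. Capitals mark matches on either strand to the GC box GGGCGG, the TATA box TATAAA and the cAMP response element TGACGTCA.
Tgfa: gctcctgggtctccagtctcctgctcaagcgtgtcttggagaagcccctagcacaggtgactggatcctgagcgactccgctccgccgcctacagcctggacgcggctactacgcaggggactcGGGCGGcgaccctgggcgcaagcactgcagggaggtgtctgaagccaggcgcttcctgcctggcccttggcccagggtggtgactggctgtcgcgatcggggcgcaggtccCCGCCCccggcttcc
Areg: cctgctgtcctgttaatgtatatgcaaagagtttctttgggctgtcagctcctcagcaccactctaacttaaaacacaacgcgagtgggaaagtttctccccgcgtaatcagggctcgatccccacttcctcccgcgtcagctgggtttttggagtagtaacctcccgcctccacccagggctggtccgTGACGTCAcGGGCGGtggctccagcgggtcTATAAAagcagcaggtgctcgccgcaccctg
The Tgfa window held 2 GC boxes and no TATA box and was 69.2% G and C, against a median of 52.4% over all promoters. The Areg window held 1 GC box, 1 TATA box and 1 cAMP response element and was 57.2% G and C. Of 32851 mouse promoter windows of this length, 32.7% held the GC box, 12.4% the TATA box and 1.55% the cAMP response element. The AP-1 letters TGANTCA (6.75% of windows) and the TCF letters CTTTGAT (3.21%) were in neither window, and no overlap between motifs occurred in them. Of the 10 genes, 6 had a window in the table, and those of Egf, Btc and Erbb2 held none of the 5 motifs while that of Egfr held 1 GC box.

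Hbegf, which encodes HB-EGF, was at 10.7, 13.3 and 12.5 FPKM in ApcMin and at 12.8, 19.9 and 14.5 FPKM in PCdel libraries. PCdel QC8 had the highest value, and QC3 lay within the range of the controls. The log2 fold change was 0.33 (SE 0.18, 95% interval -0.09 to 0.75), with an exact permutation p of 0.2.

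Egf itself was close to the limit of what these libraries show. It was at 0.0890, 0.221 and 0.0876 FPKM in ApcMin and 0.0871, 0.252 and 0.111 FPKM in PCdel libraries, with a mean read coverage of its exons between 0.164 and 0.302. The groups overlapped (exact permutation p = 0.7), and a difference was not detectable at this depth. Of its exon bases 9.82% are shared with other annotated genes, the largest share in the family; the shares of Nrg1, Ereg and Tgfa were 4.66%, 3.42% and 1.82%, and whether counting used strand is not stated.

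**Figure D3:**
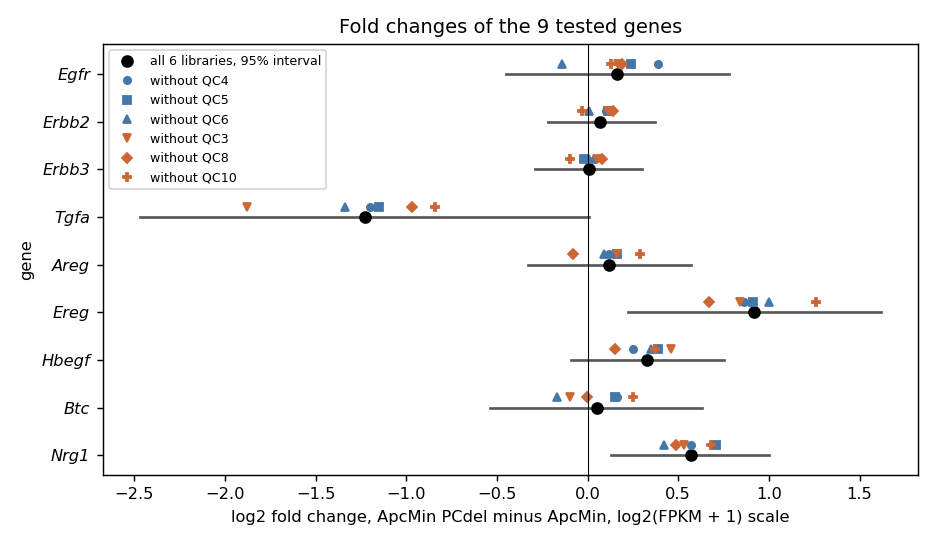
Log2 fold change, PCdel minus ApcMin, on the log2(FPKM + 1) scale for the 9 tested genes (black points, bars are 95% intervals), with the value after each library was left out as small symbols (blue for an ApcMin library, orange for a PCdel library). The intervals of Ereg and Nrg1 lie above 0, that of Tgfa reaches 0.01, and the small symbols of Areg, Btc, Egfr, Erbb2 and Erbb3 fall on both sides of 0.

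Set side by side, the ligands had a different order of mean levels in each genotype, with Areg first and Egf last in both. In ApcMin adenomas mean levels ran Areg (17.0 FPKM), Btc (12.9), Hbegf (12.2), Tgfa (11.6), Ereg (7.74), Nrg1 (4.93) and Egf (0.133). The ranges of Btc, Hbegf and Tgfa overlapped each other, whereas Areg lay above them, Ereg lay below Tgfa and Nrg1 was the lowest of the tested ligands. In PCdel adenomas the order was Areg (19.1 FPKM), Ereg (16.5), Hbegf (15.7), Btc (13.4), Nrg1 (7.72), Tgfa (5.63) and Egf (0.150). There the ranges of Areg, Ereg, Hbegf and Btc overlapped from one to the next, as did those of Nrg1 and Tgfa. This order holds for FPKM and depends on the unit: in coverage per gigabase of aligned sequence, Ereg (6.97 to 8.66) lay above Tgfa (1.81 to 2.42) and Hbegf (10.7 to 13.3) above Btc (6.16 to 9.14) in ApcMin adenomas.

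The sum over the 7 ligands was 66.5, 73.0 and 59.9 FPKM in ApcMin and 84.5, 93.2 and 56.7 FPKM in PCdel libraries. QC8 had the highest and QC10 the lowest sum, and the groups overlapped (66.5 ± 6.57 and 78.2 ± 19.1 FPKM, SD, n = 3 each). Ereg made up 10.5%, 10.4% and 14.5% of that sum in ApcMin and 20.8%, 24.2% and 16.4% in PCdel libraries. Tgfa made up 18.1%, 17.7% and 16.1% in ApcMin and 14.3%, 2.93% and 3.69% in PCdel libraries. The ratio of Tgfa to Ereg was therefore 1.73, 1.70 and 1.12 in ApcMin and 0.686, 0.121 and 0.224 in PCdel libraries and the groups did not overlap. In read coverage the ratio was 0.323, 0.318 and 0.209 in ApcMin and 0.128, 0.0132 and 0.0259 in PCdel libraries, again without overlap but below 1 in all 6, so which of the pair is the more abundant in the controls depends on the unit. This ratio was chosen after the values were seen and was not tested.

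**Figure D4:**
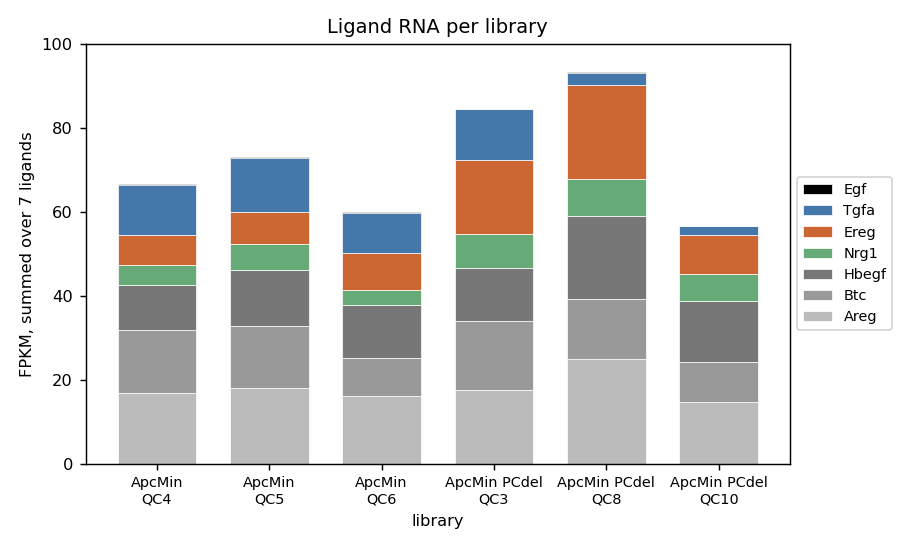
FPKM of the 7 ligand genes stacked for each of the 6 libraries. The stack is tallest in PCdel QC8 (93.2 FPKM) and shortest in PCdel QC10 (56.7 FPKM), and on this FPKM scale the Ereg band exceeds the Tgfa band in the 3 PCdel libraries and not in the 3 ApcMin libraries; in read coverage Ereg exceeds Tgfa in all 6.

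Among ligands outside the 10 genes, Nrg4, a neuregulin that binds ErbB4, was at 4.06, 3.27 and 7.17 FPKM in ApcMin and 4.48, 3.19 and 2.46 FPKM in PCdel libraries. QC6 was the highest and QC10 the lowest, the groups overlapped, and the log2 fold change was -0.39 (SE 0.28), or -0.11 without QC6. Nrg2 stayed at or below 0.248 FPKM and Nrg3 at or below 0.0227 FPKM, and neither was tested.

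Genes that act before and after the receptors showed no call. Over all genes tested, 63.1% had a positive fold change, and 49.45% did without QC6. A list of 6 tested ligand sheddases and iRhoms held the proteases that release the ligands (Adam10, Adam17) and their cofactors. All 6 had a positive fold change, with a median of 0.10 on the log2 scale. By limma, 0 of them had an unadjusted p below 0.05 (2.70% of all genes were higher and 0.681% lower at this level). Without QC6, 3 of the 6 were positive and the median was 0.01. A list of 14 receptor inhibitors held inhibitors of the receptors, such as Lrig1, and of the cascade after them, such as the Sprouty genes. Of these, 12 were positive and 2 negative with a median of 0.13. Without QC6, 12 were positive and the median was 0.08. Among 23 adaptors and kinases of the cascade, 19 were positive and 4 negative with a median of 0.08, and without QC6 16 were positive with a median of 0.03. Only Pik3cb, a catalytic subunit of PI3K (0.24, SE 0.14), and Gab2, a docking protein (0.12, SE 0.10), of the genes in these 3 lists had groups that did not overlap, where 6.00% of all genes were apart and higher.

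The 10 output genes of the ERK pathway, among them the phosphatase Dusp6 and the transcription factors Etv4 and Etv5, had 9 positive fold changes and 1 negative, with a median of 0.22. Without QC6, 7 were positive and the median was 0.06. Spry2 and Spry4 are in this list and in that of the inhibitors. By limma, 0 of the genes in these lists passed the adjusted threshold (0.0140% of all genes did). At an unadjusted p below 0.05 limma also called 0 of them, where 2.70% of all genes were higher and 0.681% lower. At such shares, lists this small would hold few genes. The median over all genes tested was 0.04, or -0.002 without QC6, and 63.1% of them were positive, or 49.45% without QC6.

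**Figure D5:**
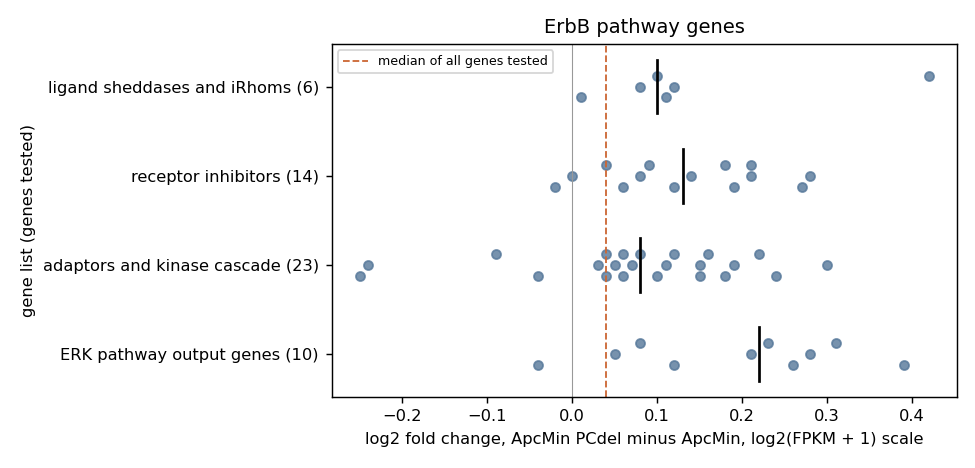
Log2 fold change, PCdel minus ApcMin, of each tested gene (points) in 4 lists of ErbB pathway genes, with the median of each list as a black line and that of all genes tested (0.04) as a dashed line. Points lie between -0.25 and 0.42, most of them above 0, and none passed the test.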

How the data were processed

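RNA of small intestinal adenomas was sequenced in 6 libraries, 3 ApcMin and 3 ApcMin PCdel, after preparation with the TruSeq RNA kit. The study's methods name CLC Genomics Workbench and a MatLab normalization whose settings are not given in the sources used here, nor are the program and annotation behind the gene values. The authors deposited FPKM per gene, scaled for transcript length and library size, and this unit was used for the results. TPM, which the authors scaled to the same sum in every library, served as an alternative. Mean read coverage, a signal the authors deposited unscaled, gave the gigabases aligned per library and an alternative. No read counts were used here, so intervals of counting error were not derived. Gene spans lie on GRCm38 (9 of 10 equal those of GENCODE M21).

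FPKM of repeated entries of a gene were summed. Genes with a mean of at least 1 FPKM (14240) were compared on log2(FPKM + 1) with limma 3.58.1 in R 4.3.3 (lmFit, eBayes with trend), two-sided, with Benjamini-Hochberg adjustment over all of them and a threshold of 0.05; this scale understates changes of weakly expressed genes. For each gene alone, an exact permutation test (two-sided) was run. The fit was tested on simulated data. The genes named were the 10 family members, the other EGF family ligands and receptor, up to 3 non-overlapping genes of each pathway list with the largest fold change, and markers set beside a member, and further list members were named as examples of function. The members and lists were chosen with earlier results of these data known. Promoter sequences came from RefSeq (GRCm38.p6).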

Additional observations from a re-analysis of the deposited data

Results flagged for a closer look

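The fold changes of 3 genes were unlike between the 4 libraries with Xist RNA and the 2 without it, in a comparison added after the data were seen. For Tgfa the log2 fold change was -1.99 with Xist RNA and 0.29 without, a difference of -2.28, which is the difference of QC3 from QC8 and QC10 seen again. For Btc it was -0.31 and 0.77, a difference of -1.08. For Egfr it was -0.13 and 0.76, a difference of -0.89. Without Xist RNA there was 1 library per genotype, QC6 and QC3, so the spread among such libraries could not be measured. For that reason no p-value is given here, and these 3 genes are not shown to stand out from other genes. A difference tied to Xist RNA cannot be told apart from what sets those single libraries apart.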

How the results depend on the processing

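No gene of the family passed the adjusted threshold in any of the 16 alternatives (14 planned, and 2 chosen after seeing the data: coverage per gigabase and Xist RNA as a covariate). Over all genes, 2 were called, 1 without the filter on low values, 1 with median centring and between 1 and 5 with 1 library left out. The log2 fold changes of Tgfa (-1.88 to -0.84), Ereg (0.67 to 1.26), Nrg1 (0.42 to 0.71) and Hbegf (0.15 to 0.46) kept their direction in all 16. Median centring gave -0.0001 for Btc and -0.04 for Erbb3. Quality weights gave -0.04 for Btc and Egfr, -0.02 for Erbb2 and -0.01 for Erbb3. With 1 library left out, the values ran from -0.08 to 0.29 for Areg, -0.17 to 0.25 for Btc, -0.14 to 0.39 for Egfr, -0.03 to 0.14 for Erbb2 and -0.10 to 0.08 for Erbb3; the negative ends came without QC8, QC6, QC6, QC10 and QC10. The cause was not tested. No paired analysis was possible because the labels give no litter or mouse by which libraries of the 2 groups could be paired. The number of libraries limits what could be called, and Egf is limited by depth.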
